A study of Canis lupus familiaris with 21 samples.

Results

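The spots described here were the 150, out of 30183 tested and 42034 spots on the array that were not controls, that lay highest in the Snail1 and Zeb1 lines relative to the E47, Snail2, Twist1 and Twist2 lines. Each spot's deposited log ratio was brought to the log2 scale and averaged over the 3 value-table columns of a line. A spot's score was the lower of its Snail1 and Zeb1 means minus the highest of its E47, Snail2, Twist1 and Twist2 means, and the 150 highest scores were taken. A spot was tested where it was well above background in either colour in at least 3 of the 21 scanner files, and 146 of the 150 were well above background in all 21. The Zeb2 columns took no part in the choice. The spots were mostly not raised over the control: the median line mean was 0.13 in Snail1 and 0.07 in Zeb1, where 0 is the level of the control, and it ran from -4.16 to -3.29 in the 4 other lines. They are therefore described as spots that lay near the control in Snail1 and Zeb1 and far below it in E47, Snail2, Twist1 and Twist2.

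All RNA came from MDCK-II, a canine epithelial cell line of kidney origin. On each two-colour array the sample in Cy5 was a line that overexpressed E47, Snail2, Snail1, Twist1, Twist2, Zeb1 or Zeb2, which makes 7 lines. The Cy3 channel held, by its source and reference labels, RNA of MDCK-II cells with the pLKO empty vector. A ratio under 0 on the log2 scale means less signal in the line than in that control. There were 3 arrays per line, 21 in all. Clones were picked with cloning rings after selection in G418 or puromycin, but whether a line's 3 arrays stand for different clones or cultures is not stated. The p-values below therefore measure only the spread between these arrays, which may be technical. Except where a line was fitted alone, that spread is pooled over all 7 lines. The protocol text for RNA extraction mentions tumours and a pooled Cy3 reference, at odds with those labels, and no dye swap is named, so dye bias of a spot stays in its ratio. The number of arrays limits the precision of each mean.

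The 7 factors can each drive an epithelial to mesenchymal transition: cells of an epithelium give up their junctions and polarity and become motile. Snail1, Snail2, Zeb1 and Zeb2 are zinc-finger proteins that bind E-box sequences and repress epithelial genes such as the one for E-cadherin, an adhesion protein of cell junctions. E47, Twist1 and Twist2 are basic helix-loop-helix proteins, which also bind E-boxes. MDCK cells form a polarised epithelial sheet in culture, and they are a common model of this transition. Snail1 and Zeb1 are the factors that the study's title names.

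The labels and the files conflict on which array belongs to which sample. Of the 21 value-table columns, 15 equalled the log ratios of a scanner file, and each of those files is recorded for another sample. The other 6 columns equalled no file. These were the 3 Snail1 columns, Twist2 column 3, and Zeb2 columns 2 and 3, and their scale and direction were taken to be those of the rest. Zeb2 column 1 and the 3 Zeb1 columns equalled the 4 files of slide 6, while the columns of the 4 low lines that equalled a file came from slides 1 to 3. Slide and group can therefore not be told apart for most columns. Zeb2 column 1 equalled the file recorded as Zeb1 array 1, and Zeb1 column 1 the file recorded as Zeb2 array 1. Twist1 columns 1 and 2 equalled the files recorded as E47 arrays 3 and 2, and Twist1 column 3 that recorded as Twist2 array 3. E47 columns 1, 2 and 3 equalled those of Twist1 arrays 2 and 1 and Snail2 array 1. Snail2 column 1 equalled that of E47 array 1. The remaining columns with a file equalled one recorded for their own line. Values below are given by column name, and arrays by their recorded sample are given separately. No spot is given a gene name: in all 21 files the grid of names belongs to another array design than the slide number gives. For this reason the spots of the overexpressed factors themselves were not checked. Spots are called by the grid's identifier with their row and column on a grid of 532 rows and 85 columns.

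In the Snail1 columns the 150 spots had medians of 0.17, 0.15 and 0.10 on the log2 scale. In the Zeb1 columns the medians were 0.12, 0.17 and -0.09. All 6 columns were thus centred near the control, and their line means lay within 1 of it at 137 spots for Snail1 and 136 for Zeb1, 131 of them in both lines. The line means spread from -0.89 to 2.67 in Snail1 and from -1.11 to 2.22 in Zeb1. Both means were above 0 at 73 spots, both were under 0 at 41, and the other 36 had 1 mean on either side. Only 8 spots had a mean of 1 or more in both lines, so a raised level over the control marked a small share of the set.

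The E47 columns had medians of -4.13, -4.01 and -3.89. The Snail2 columns had medians of -3.62, -4.07 and -3.91. The Twist2 columns had medians of -4.47, -3.90 and -4.01. Their replicates lay close together, with a median standard deviation over the 150 spots of 0.25 for E47, 0.36 for Snail2 and 0.41 for Twist2 (n = 3 columns each). The Twist1 columns were less low, at -2.96, -3.52 and -3.50, and their median standard deviation was 0.67. In folds, the median spot measured 16.0 times lower than the control in E47, 14.5 times in Snail2, 9.78 times in Twist1 and 17.9 times in Twist2. All 4 low-line means were at -2 or less at 142 of the 150 spots, and all 12 low-line columns were under 0 at 149. In RNA of whole cultures, fewer cells with a transcript and less of it per cell cannot be told apart.

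**Figure D1:**
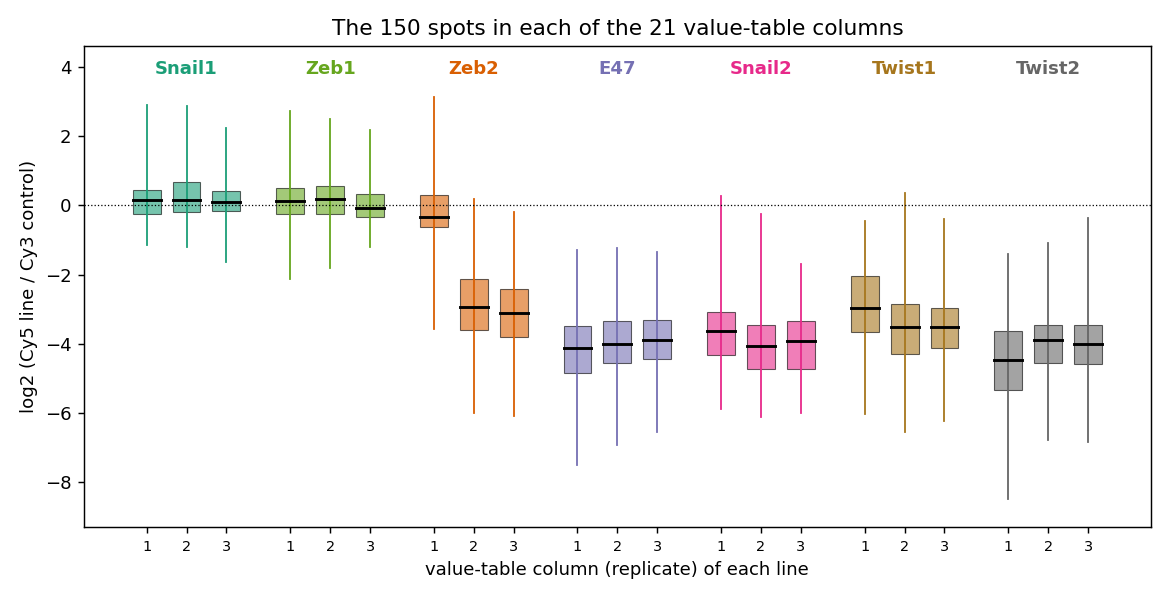
Log2 ratio of line over control (vertical axis) of the 150 spots in each of the 21 value-table columns, grouped by line. Boxes run from the 25th to the 75th percentile over spots with a black bar at the median, and thin lines run from the lowest to the highest spot. The 6 Snail1 and Zeb1 columns and Zeb2 column 1 lie near 0, Zeb2 columns 2 and 3 have medians of -2.93 and -3.12, and the 12 columns of the 4 other lines have medians from -4.47 to -2.96.

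These levels follow from how the spots were chosen and carry no test. At 149 of the 150 spots the lowest of the 6 Snail1 and Zeb1 columns lay above the highest of the 12 low-line columns. The same held at 13.1% of all tested spots, and since the choice rests on these columns nothing is read from the 2 shares. Twist1 most often set the upper edge of the low group: it was the highest of the 4 low means at 113 spots, against 16 for E47, 15 for Snail2 and 6 for Twist2. The Twist1 columns equal files recorded for E47 and Twist2, so this order holds only for the columns as named. The lowest mean was that of Twist2 at 61 spots, of E47 at 57, of Snail2 at 27 and of Twist1 at 5. On the other side, Zeb1 was the lower of the 2 near-control lines at 87 spots and Snail1 at 63.

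**Figure D2:**
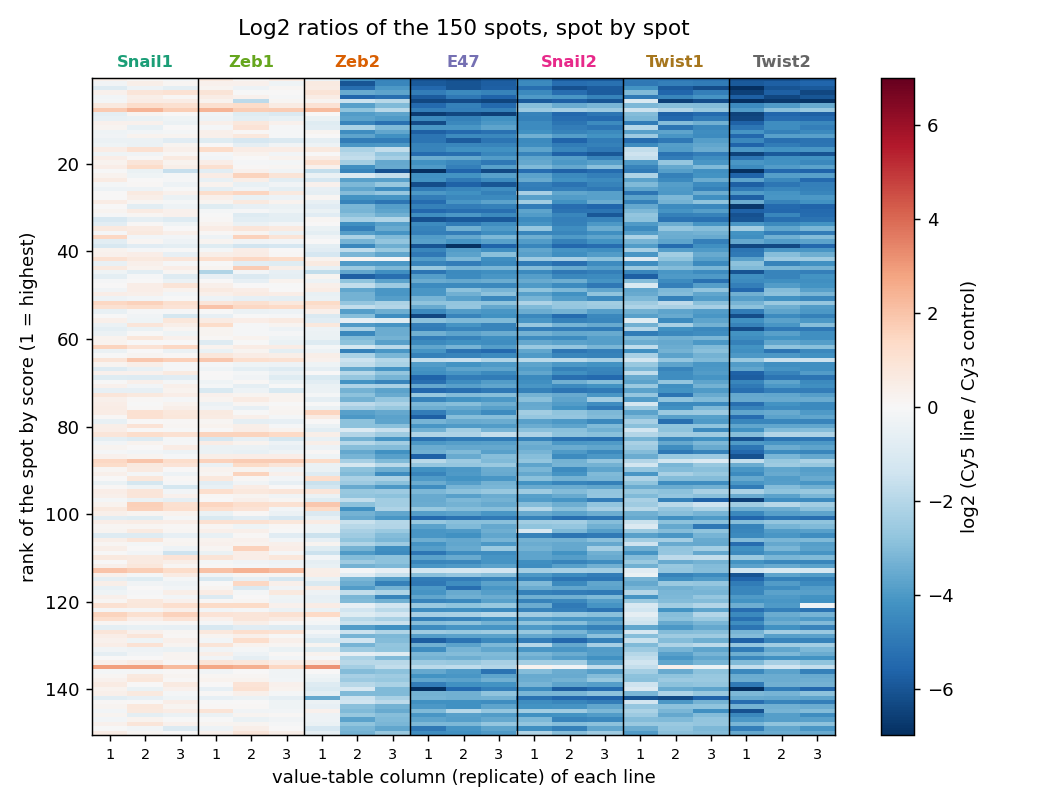
Log2 ratio of line over control (colour, blue below control and red above) for each of the 150 spots in rank order of score (vertical axis) and each of the 21 value-table columns (horizontal axis, 3 per line). Snail1, Zeb1 and Zeb2 column 1 are pale at most ranks, and E47, Snail2, Twist1 and Twist2 are blue; Twist1 column 1 is paler than its other columns at many ranks.

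The spot with the highest score, 5.20, was A_11_P0000030026 at row 410 and column 31. Its Snail1 columns read 0.36, 0.15 and -0.12, and its Zeb1 columns 0.69, 0.15 and 0.59. Its E47 columns read -6.10, -6.29 and -5.96, and its Snail2 columns -4.68, -5.86 and -5.87. All 3 replicates of each line agreed on the side of the gap, and the low lines sat more than 4 below the lowest near-control column. Its Twist1 columns were -4.98, -5.04 and -5.19 and its Twist2 columns -6.08, -6.17 and -5.86. In raw signal, its Cy3 brightness was 1036.5, 837.5 and 1230 on the 3 arrays equal to Zeb1 columns and 754.5, 1053 and 1022.5 on those equal to E47 columns. Its Cy5 brightness was 2216, 1946.5 and 1932 on the first set and 92.5, 110 and 105 on the second, so the 2 sets stood apart in the line's channel and overlapped in the control's.

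The second spot, A_11_P0000014234 (row 232, column 30, score 4.99), had Snail1 columns of -0.24, 0.40 and 0.15 and Zeb1 columns of 0.30, 0.31 and -0.30. Its E47 columns were -5.87, -6.07 and -5.77. In Twist1 and Twist2 its Cy5 signal was not well above background on any array that equals a column of these lines, so only a bound holds there: it was at least 12.3-fold lower than the control in Twist1 and at least 25.3-fold lower in Twist2. The bound sets the control's mean against the dimmest signal that counts as measured. The third spot, A_11_P000006463 (row 377, column 49), was at -0.63 in Snail1 and 0.00 in Zeb1, and its 4 low means ran from -6.32 to -5.41. The fourth, A_11_P0000015964 (row 326, column 32), was at 0.72 and 0.31 and at least 28.3-fold lower in Twist2. The sixth, A_11_P0000014368 (row 98, column 74), had the lowest Twist2 mean of the set, -7.01, beside 0.31 in Snail1.

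A pair of spots among the 10 highest scores, the seventh and the eighth, had means of 1 or more in both near-control lines. A_11_P000002886 (row 323, column 31) read 1.83, 2.40 and 1.75 in the Snail1 columns and 2.37, 1.72 and 1.79 in the Zeb1 columns. Its E47 columns were -4.77, -4.79 and -4.76, its Snail2 mean -2.46, its Twist1 mean -2.06 and its Twist2 mean -3.12. All 6 columns of the first 2 lines were thus above the control at this spot, and the means of the 4 low lines were below it. A_11_P0000029767 (row 237, column 10) had means of 1.02 in Snail1 and 1.00 in Zeb1 and was at least 11.7-fold lower in E47. Ranks 9 and 10, A_11_P0000033985 (row 225, column 51) and A_11_P0000033435 (row 427, column 35), were slightly under the control in both lines, at -0.15 and -0.71 for the first and -0.44 and -0.52 for the second. The first of them held the lowest E47 mean of the set, -6.50.

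The fifth spot by score, A_11_P0000016670 (row 152, column 80), is set aside here. Its value-table entry differed from the scanner files in all 15 columns that otherwise equal a file: in the first E47 column the table gave -5.85 and the equal file 2.18. One other spot, A_11_P0000016673 (row 325, column 36, rank 76), differed in the same 15 columns, with -3.40 in the table and 0.38 in the file. The remaining 148 spots matched their files in every such column. Counts below include both spots, with the count for the 148 beside those that turn on them.

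On the arrays that equal a column, the gap lay in the Cy5 channel. On the 11 arrays that equal a column of a low line, 146 to 149 of the 150 spots were well above background in Cy3, and 50 to 129 were so in Cy5. Median Cy3 brightness of the 150 spots was 429 to 642 on these arrays and median Cy5 brightness 61 to 189. On the 3 arrays that equal a Zeb1 column, Cy3 brightness was 568.25 to 669, and Cy5 brightness was 821.5 to 975.5 with 148 or 149 spots well above background. Of all tested spots, 47.8% to 86.3% were well above background in Cy5 on the first set and 80.9% to 83.8% on the second. The Snail1 columns equal no file, so no signal stands behind them here.

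Because many spots were dim in Cy5, some folds are bounds. On every array of the line that equals a column, 18 spots were not well above background in E47, 14 in Snail2, 27 in Twist1 and 32 in Twist2, where 2 arrays were at hand. In Zeb1 this held for 1 spot, the fifth by score. In all, 42 of the 150 had this limit in at least 1 line. With such spots set at their bound, where one could be had, the medians were -3.94 in E47, -3.83 in Snail2, -3.12 in Twist1 and -4.03 in Twist2. These correspond to 15.3, 14.2, 8.70 and 16.4 times lower than the control.

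The scores had no break at the threshold. The median score of the set was 3.10, and that of rank 10 was 3.95. The last 3 spots inside were A_11_P0000019567 and A_11_P0000018160, both at 2.74, and A_11_P0000030481 at 2.73. The first 3 outside, A_11_P0000026494, A_11_P000003406 and A_11_P0000023058, were all at 2.73. The spot at rank 300 still had 2.41, and 9335 tested spots, or 30.9%, had a score over 0. A last spot inside, A_11_P0000030481, had means of 0.22 in Snail1, 0.52 in Zeb1 and -2.51 in Snail2. The nearest outside, A_11_P0000026494, had -0.02, 0.28 and -2.75, which is much the same profile. The set also depends on scale: 52 of the 150 stayed with the columns scaled to a common spread and 95 with quantile normalisation.

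The spots lay across the whole array. Cut by row into 4 equal parts, the grid held 32, 43, 41 and 34 of them, and cut by column 33, 42, 30 and 45. By column these are 22.0%, 28.0%, 20.0% and 30.0% of the set, where each of the 4 parts held 24.3% to 25.3% of all tested spots. Only 4 spots touched another of the set.

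Across the 21 columns, each spot's profile was set against the mean profile of the 150. Their Pearson correlations ran from 0.753 to 0.992 with a median of 0.962, and 96 of the 150 were over 0.95. Outside the set 314 spots were over 0.95 too. The columns share the control RNA and the replicates of each line, and the correlation ignores the size of the change. The 3 most alike outside were A_11_P0000012380, A_11_P0000038138 and A_11_P000003406. The first of these read -1.81 in E47, -1.81 in Snail2, -1.39 in Twist1 and -1.83 in Twist2 beside -0.05 in Snail1 and -0.08 in Zeb1, the same profile at a smaller size.

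Zeb2 did not take one side. On the line mean, the median of the 150 spots was -2.14, or 4.42-fold lower than the control, and the means ran from -4.12 to 0.09. Of the 150 spots, 137 were lower than the control in limma's fit over all 21 columns (Benjamini-Hochberg adjusted p under 0.05 over all tested spots and a log2 value of -1 or less), and 0 were higher. At an unadjusted p under 0.05 the same fit had 139 lower and 0 higher. With the 3 Zeb2 columns fitted alone, limma called 0 of the 150 spots, with 84 lower at an unadjusted p under 0.05. That fit called 49 lower and 50 higher among all 30183 tested spots. Counts at an unadjusted p, here and below, have no share over all tested spots to be read against. In the fit over all 21 columns 15.6% of all tested spots were called lower and 14.7% higher. Of the 148 spots that match their files, 135 were called. Of the 13 not called, 10 had a mean above -1. Yet the Zeb2 columns disagreed with one another: the median standard deviation of the 3 columns was 1.57 over the 150 spots, the widest of the 7 lines. Over all tested spots it was 0.47, and that of Twist1 was 0.47 too. The fit over all 21 columns pools the spread of Zeb2 with the narrower spread of the other lines. Its p-values therefore understate the spread of the Zeb2 columns at the 150 spots.

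Zeb2 column 1 had a median of -0.35, column 2 of -2.93 and column 3 of -3.12. Column 1 lay near the control and the other 2 lay near the low lines. Column 1 equals a file recorded for Zeb1, so whether this split lies within the Zeb2 line cannot be told. At -1 or less were 15 spots in column 1 (6.87% of all tested spots), 141 in column 2 (20.9%) and 146 in column 3 (24.1%). Column 1 was above both others at 148 spots, with a median distance of 2.48 to the higher of them, and by 1 or more at 134. By that measure 14.7% of all tested spots had column 1 above both others by 1 or more. Columns 2 and 3 differed from each other by a median of 0.49.

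Placed on a scale where 0% is the highest low-line mean and 100% is the lower of the Snail1 and Zeb1 means, the Zeb2 line mean had a median of 35.5% and lay inside the gap at 148 spots. That middle place is an average of 2 edges. Both ends of the scale rest on values that chose the spots, so places on it are a description only. Column 1 alone had a median of 93.1% and was at or above the Snail1 or Zeb1 edge at 59 spots. The mean of columns 2 and 3 had a median of 4.63%, at or below the low edge at 64 spots and inside the gap at 86. Both of these columns were under all 6 Snail1 and Zeb1 columns at 149 spots (29.0% of all tested spots), and column 1 was so at 66 (20.0%). Among the 148 spots that match their files the count for columns 2 and 3 was 147.

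**Figure D3:**
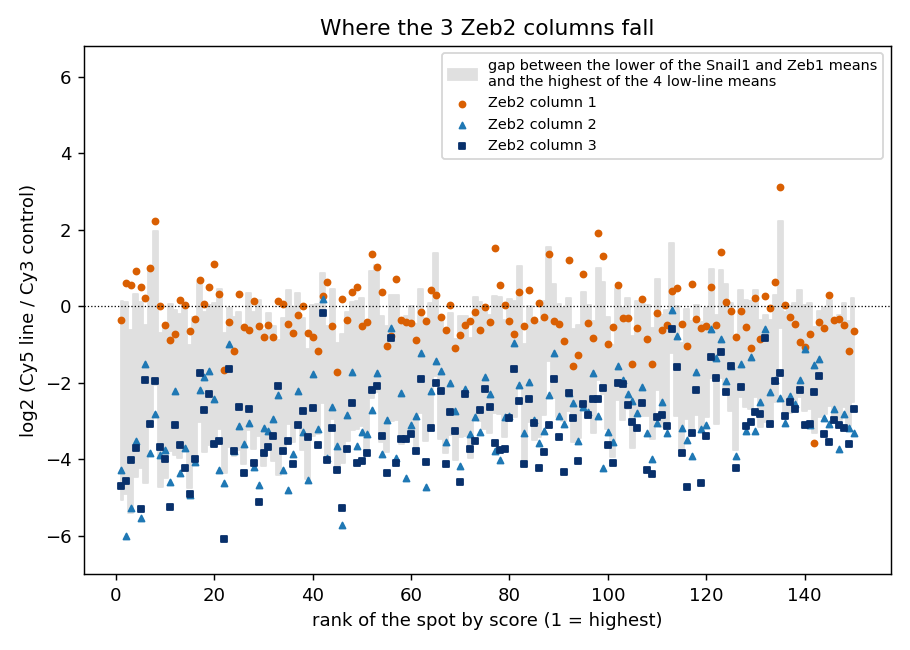
Log2 ratio of line over control (vertical axis) in the 3 Zeb2 columns for each of the 150 spots by rank of score (horizontal axis). The grey bar of each spot runs from the highest low-line mean to the lower of the Snail1 and Zeb1 means. Column 1 (circles) lies at the top of the bars, with a median place of 93.1%, and columns 2 and 3 (triangles and squares) lie at their foot, with a median place of 4.63% for their mean.

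The top spot shows this split. A_11_P0000030026 read -0.35, -4.27 and -4.70 in the Zeb2 columns. Its Zeb2 mean was -3.10 with a standard error of 0.51 in the fit, 8.60-fold lower than the control (limma, adjusted p = 0.000102), although 1 of the 3 columns lay beside the control. The second, A_11_P0000014234, read 0.61, -6.01 and -4.56. Its mean was -3.32 ± 0.71 (SE, limma adjusted p = 0.000889). Both standard errors pool the spread of all 7 lines. The Zeb2 columns alone had a standard deviation of 2.40 at the top spot and 3.48 at this one, so both p-values understate their spread. The eighth, A_11_P000002886, read 2.22, -2.82 and -1.95, above the control in column 1 and below it in the others. Its mean of -0.85 ± 0.58 was not distinguishable from 0 (SE, limma adjusted p = 0.226).

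The 5 lowest Zeb2 means belonged to A_11_P0000027284, A_11_P0000038280, A_11_P0000024304, A_11_P0000018514 and the fifth spot by score, which is set aside above. A_11_P0000027284 (row 211, column 60) read -1.66, -4.63 and -6.07 and had a mean of -4.12 ± 0.63 (SE, limma adjusted p = 6.07e-05). Its Zeb2 columns had a standard deviation of 2.25, which that pooled standard error understates. Its column 1 was among the lower ones of the set, but still above its other columns. A_11_P0000038280 (row 148, column 77) read 0.18, -5.72 and -5.28, with a mean of -3.60. A_11_P0000024304 (row 406, column 46) and A_11_P0000018514 (row 250, column 82) had means of -3.57 and -3.48.

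The 5 highest Zeb2 means ran from -0.39 to 0.09. A_11_P0000040927 (row 256, column 1) read 0.26, 0.18 and -0.19, with a mean of 0.09 ± 0.36 (SE, limma adjusted p = 0.864), while its E47 mean was -3.79 and its Snail1 mean 0.87. It was the only spot of the 150 with a Zeb2 mean above 0. A_11_P00000764 (row 259, column 33) read 0.39, -0.09 and -0.60 beside 1.66 in Snail1 and 2.22 in Zeb1. A_11_P000007269 (row 329, column 55) read 1.41, -0.85 and -1.19. A_11_P00000928 (row 520, column 13) read 0.27, -0.60 and -0.83, and its low-line means ran from -3.52 to -3.01. A_11_P000005538 (row 431, column 71) read 3.12, -2.39 and -1.75, so its mean of -0.34 rests on values on both sides of the control; it was well above background in only 9 files.

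Zeb2 columns 2 and 3 were set against the mean of the 4 low lines. The mean of these Zeb2 columns had a median of -3.01 over the 150 spots, against -3.89 for the mean of the 4 low lines, and it was the higher of the pair at 123 spots, with a median difference of 0.74. Against the highest of the 4 low-line means, it was at or below at 64 spots. Since the spots were chosen for low values in these 4 lines, nothing is read from these counts. All 3 Zeb2 columns were under 0 at 93 spots and at -1 or less at 15. Column 1 minus the mean of Snail1 and Zeb1 had a median of -0.33. Zeb2 column 1 equals the file recorded as Zeb1 array 1, on the slide that also holds the Zeb1 columns. Columns 2 and 3 equal no file, so slide, line and column cannot be told apart here.

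By its file, Twist1 column 1 is recorded as E47 array 3. It stood apart from the other Twist1 columns over all tested spots, where its nearest column was Zeb2 column 2 (r = 0.812). Its mean correlation there was 0.799 with Zeb2 columns 2 and 3 and 0.717 with the other Twist1 columns. Those other columns had 0.914 with each other, so the likeness is not particular to the 150 spots. Twist1 column 1 was 1 or more above the mean of the other Twist1 columns at 61 of the 150 spots. The share of all tested spots is not given for this limit. At these 61 spots the median was -1.97 in Twist1 column 1 and -3.92 in the mean of the other 2. The mean of E47, Snail2 and Twist2 there had a median of -4.05. At the other 89 spots the medians were -3.46, -3.14 and -3.97, in the same order. The 89 include spots where Twist1 column 1 was the lower one: A_11_P0000038280 read -5.73, -3.98 and -3.96 in the Twist1 columns. Zeb2 columns 2 and 3 had a median mean of -2.17 at the 61 spots and -3.46 at the 89, and Zeb2 column 1 -0.11 and -0.46. All of these columns share the control RNA and the split was made after the values were seen, so the values stand side by side with no test.

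**Figure D4:**
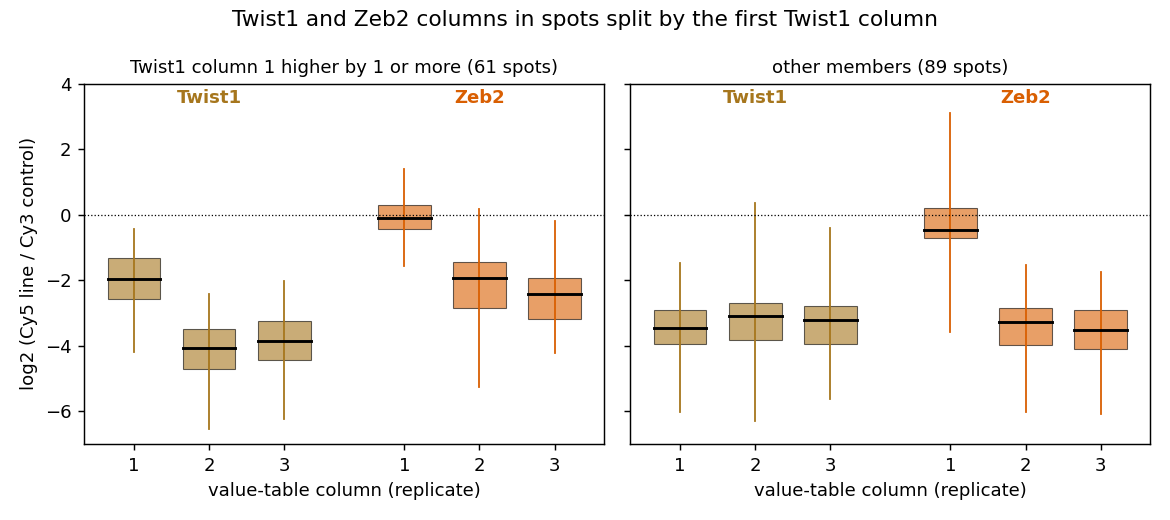
Log2 ratio of line over control (vertical axis) in the 3 Twist1 and 3 Zeb2 columns, for the 61 spots where Twist1 column 1 was 1 or more above the mean of the other Twist1 columns (left) and for the 89 other spots (right). Boxes run from the 25th to the 75th percentile with a bar at the median, and thin lines from the lowest to the highest spot. Where Twist1 column 1 is higher, Zeb2 columns 2 and 3 are also less low, with a median of -2.17 for their mean against -3.46 on the right.

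At A_11_P0000014368, the sixth spot, the Twist1 columns read -1.06, -6.54 and -6.22. Its Zeb2 columns read 0.20, -1.51 and -1.92, while its E47, Snail2 and Twist2 means were -6.35, -5.87 and -7.01. Its Zeb1 columns read 0.23, -1.81 and 0.12, so Twist1 column 1 and Zeb2 columns 2 and 3 lay above all E47, Snail2 and Twist2 columns at this spot, and the first 2 of these 3 also lay above Zeb1 column 2. Its Zeb2 mean of -1.08 ± 0.70 did not pass the test (SE, limma adjusted p = 0.204). At A_11_P0000015964, the fourth spot, Twist1 read -3.09, -5.53 and -4.76 and Zeb2 0.92, -3.53 and -3.70. At the top spot the Twist1 columns did not split, at -4.98, -5.04 and -5.19, and Zeb2 columns 2 and 3 were at -4.27 and -4.70.

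The scanner files offer arrays that the choice of spots did not use. Of the 6 files that equal no column, 5 are recorded for Snail1 (3 arrays) or Zeb2 (arrays 2 and 3). The sixth, recorded as Twist1 array 3, lay close to Twist2 column 3 (r = 0.955 over the 42034 spots that are not controls). On the scanner's own log ratio, brought to log2, the 150 spots had medians of -4.28, -4.25 and 0.35 on the arrays recorded for Snail1. The medians were -3.93 and -0.40 on arrays 2 and 3 recorded for Zeb2. So 3 of these 5 arrays were as low as the 4 low lines, and 2 were near the control, and both recorded lines held arrays of each kind.

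At -1 or less were 147 spots on the first array recorded for Snail1 (25.2% of all tested spots), 147 on the second (25.1%) and 25 on the third (12.8%). On the third, 28 spots were at 1 or more (10.3% of all tested spots). For Zeb2 the counts at -1 or less were 146 of 149 measured spots on the second array (24.1%) and 22 on the third (9.03%). The first 2 Snail1 arrays both lay under the third at 148 spots, and this held at 45.8% of all tested spots. The second Zeb2 array lay under the third at 147 spots, and at 51.5% of all tested spots.

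The 3 low arrays were alike over all tested spots whatever their recorded line. The first and second arrays recorded for Snail1 had a Pearson correlation of 0.963 with each other, and 0.948 and 0.935 with the second recorded for Zeb2. Arrays 1 and 3 recorded for Snail1 had -0.127. The arrays share the control RNA, and the correlation is across spots of the same design. The first 2 recorded Snail1 arrays lay on slide 4, the third on slide 5, and arrays 2 and 3 recorded for Zeb2 both on slide 7, which thus held a low and a near-control array. Which line these arrays hold cannot be told apart from these values and the labels.

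The top spot, A_11_P0000030026, read -6.65, -7.02 and 1.19 on the arrays recorded for Snail1 and -5.81 and 0.01 on those recorded for Zeb2. The second spot read -5.77, -5.50 and -1.39, then -5.30 and -0.02. The eighth, A_11_P000002886, read -6.20, -5.99 and 0.26, then -4.97 and 1.88. Each of these spots was low on the same 3 arrays and higher on the same 2.

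**Figure D5:**
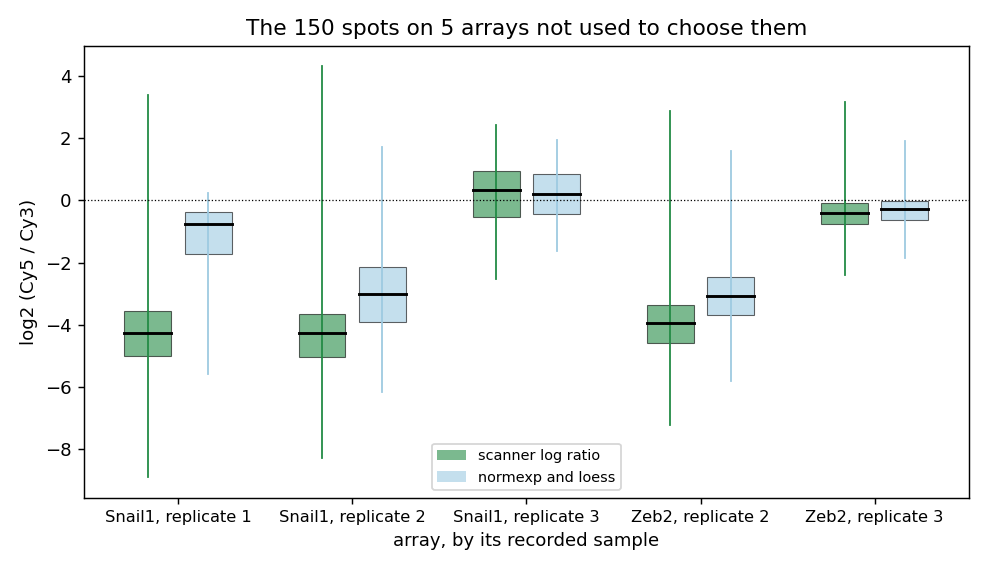
Log2 ratio of Cy5 over Cy3 (vertical axis) of the 150 spots on 5 arrays that equal no value-table column, by recorded sample, as the scanner's log ratio (green) and after normexp and loess (light blue). Boxes run from the 25th to the 75th percentile with a bar at the median, and thin lines from the lowest to the highest spot. With the scanner's ratio 3 arrays have medians from -4.28 to -3.93 and 2 arrays 0.35 and -0.40; normexp and loess bring the first array to -0.77.

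How many spots passed limma's test on these arrays varied widely with the background correction, with other settings of the fit and with the arrays included. With normexp and loess, 8 of the 150 spots were lower in the 3 arrays recorded for Snail1 (1.55% of all tested spots were called lower), and 0 were higher (0.547%). At an unadjusted p under 0.05 these were 72 and 0. With the scanner's log ratio 130 were lower (12.6%), again with 0 higher (11.1%), and at an unadjusted p under 0.05 143 were lower and 1 higher. All 130 were among the 148 spots that match their files. On the first array, where normexp gave a median of -0.77, it had estimated a noise of 620 in Cy3 and 311 in Cy5, against 1.12 and 1.33 on the second. The first array had 4 spots with background-subtracted signal under -100 in each channel and the second had 0, and the median Cy3 signal was 55 and 54.5. Without the third array recorded for Snail1, the scanner's ratio gave 146 lower and 1 higher (23.4% and 24.8% of all tested spots). With normexp and loess 50 were then lower and 0 higher, where 1696 and 1907 of 30181 tested spots were called lower and higher.

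The 3 smallest means over the recorded Snail1 arrays after normexp and loess were those of A_11_P000001598, A_11_P0000014368 and A_11_P0000039479. A_11_P000001598 (row 333, column 51) read -5.39, -5.61 and -1.58 by the scanner's ratio, low on all 3 arrays. After normexp and loess its mean was -3.83 ± 0.68 (SE, limma adjusted p = 0.0149). A_11_P0000039479 (row 55, column 3) read -5.52, -5.67 and -0.66. The 3 largest means were those of the fifth spot by score, set aside above, and of A_11_P0000038114 (row 149, column 85) and A_11_P00000764. A_11_P0000038114 read -3.88, -3.87 and 2.42, and A_11_P00000764 read -0.72, -0.89 and 1.40, the second of these with the narrower range.

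In arrays 2 and 3 recorded for Zeb2, 8 spots were lower after normexp and loess (1.34% of all tested spots) and 0 were higher (2.57%). At an unadjusted p under 0.05 these were 104 and 1. With the scanner's ratio 13 were lower (1.95%) and 0 higher (3.28%), against 112 and 0 at an unadjusted p under 0.05. The scanner medians of these arrays were -3.93 and -0.40, and after normexp and loess the medians were -3.07 and -0.27. With either array left out only 1 remains, so no count is given.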

How the data were processed

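Per the labels, 21 two-colour arrays were deposited. The intensity columns, per the file headers, are median pixel brightness from Agilent Feature Extraction 10.7.1.1 (10.0 per the submitters' processing notes). The deposited log10 columns are log10 ratios of Cy5 over Cy3: the scanner's LogRatio per the file headers, and a value table whose other processing steps are not given in the sources used here. Both were multiplied to log2. A column was called equal to a file where values agreed within 1e-04 (log10) at most spots.

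Control spots (1417) were left out. In R 4.3.3, limma 3.58.1 fitted 7 line means over 21 value-table columns (lmFit, eBayes) on all 30183 tested spots, and a spot was called at a Benjamini-Hochberg adjusted p under 0.05 and an absolute log2 value of at least 1. Testing against 0 leaves out the control's own spread. Scanner intensities were corrected by normexp with an offset of 50 and by loess. Arrays recorded for a line that equal a column used in the choice of spots had a term of their own. The fit was also run on simulated data in which all lines shared each spot's spread. That run did not cover the wider spread of the Zeb2 columns. Alternatives covered background, normalisation, filter, blocks, weights and single arrays.

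Spots named were the 10 highest scores, the 5 highest and 5 lowest Zeb2 means, 3 on each side of the threshold, the 3 largest and 3 smallest means over the arrays recorded for Snail1, and the 3 spots outside most like the set. The members and lists were chosen with earlier results of these data known.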

Additional observations from a re-analysis of the deposited data

How the results depend on the processing

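Of the 150 spots, 113 stayed when medians replaced line means, 146 with the filter set at all 21 files and 150 with no filter. With columns scaled to a common spread 52 stayed, with quantile normalisation 95, with the arrays by recorded sample 15 (scanner log ratio) or 32 (normexp and loess), and without 1 column at least 71.3% of the 150, lowest without Twist1 column 1. For the Zeb2 columns, 8 alternatives gave 119 to 143 spots called lower. Over all tested spots these alternatives called 3558 to 8370 lower. With the Zeb2 columns fitted alone limma called 0 (84 at an unadjusted p under 0.05), and without 1 column it was 93 to 143: 93 without Zeb2 column 3, 99 without column 2 and 143 without column 1. In the same order, 2823, 3642 and 6529 of all tested spots were called lower. For the arrays recorded for Snail1 (8 called), the counts were 104 with no background correction, 130 with the scanner log ratio, 98 with subtraction and the array minimum, 62 with array weights, 5 with slide as a random block, 2 with scaling between arrays, 0 with median centring and 0 with trend and robust variance (60 and 72 at an unadjusted p under 0.05). Without 1 array they were 0 to 50 (0 without Snail1 array 1 or 2, with 54 and 8 at an unadjusted p under 0.05, 50 without the third, 23 without the second recorded Zeb2 array), and 147 with the scanner log ratio and without Snail1 array 3. For the arrays recorded for Zeb2 (8 called), they were 22 with no background correction, 13 with the scanner log ratio, 23 with subtraction and the array minimum, and 0 with median centring, scaling, slide as a random block, array weights, trend and robust variance or all 3 arrays (13 to 103 at an unadjusted p under 0.05). Without 1 array they were 1 to 124, with 1 without the second Zeb2 array and 124 without the third. Subtraction with the array minimum and the scanner log ratio without the third Snail1 array were added after seeing the data. With the replicate number as a block, 137 spots were called in the Zeb2 columns, 14 in the arrays recorded for Snail1 and 9 in those recorded for Zeb2. Over all tested spots 4715, 766 and 322 were then called lower. In the value table the numbers did not pair the samples. Same-numbered columns of different lines had deviations with a mean correlation of -0.0048, and 12 of 63 pairs were over 0.1. In the recorded arrays the mean was 0.0894 (from -0.516 to 0.913), with 31 of 63 over 0.1, against a mean of -0.0491 for pairs of unlike number. Whether the numbers pair those arrays was not settled. Calls over all tested spots moved as well. For the arrays recorded for Snail1 they were 469 lower and 165 higher first, and 2299 and 1308 with no background correction. Subtraction with the array minimum gave 2074 and 1029, slide as a random block 101 and 36, scaling between arrays 21 and 10, and median centring 0 and 1. Leaving out Snail1 array 1 gave 9 and 1, Snail1 array 2 gave 1 and 0, and the second recorded Zeb2 array 816 and 328. With array weights they were 1456 and 1588, and with trend and robust variance 2 and 0. For the arrays recorded for Zeb2 they were 405 and 776 first, and 845 and 1117 with no background correction. Subtraction with the array minimum gave 771 and 1063, and the scanner log ratio 587 and 988. Settings that called 0 of the 150 spots there called 0 to 80 lower over all tested spots. Where an alternative gave 0 the cause was not tested. Spots not well above background in Cy5 have only bounds.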
